A study of Mus musculus with 4 samples.

Results

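The extracellular matrix genes described here are 45 listed genes for collagens, basement membrane proteins, matrix glycoproteins and proteoglycans, together with genes of the mesenchymal and smooth muscle cells that make them. They were followed on 4 whole-transcript arrays of sorted cells from the mouse small intestine, out of 30701 genes with a symbol. A member was taken where an array feature carried its symbol and no other, which gave 43 of the 45 genes, each with 1 feature. Pdgfra, whose feature carried further symbols, and Fbn1 were not analysed here.

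There was 1 array for each of 4 groups, all from 8-week-old Lgr5GFP-CreERT2 mice, in which the promoter of the stem cell gene Lgr5 drives GFP and an inducible Cre. The groups are GFP-positive stem cells with mutated LncGata6, a long noncoding RNA gene beside Gata6, GFP-positive stem cells without Ehf (Ehf-/-), an ETS transcription factor of epithelia, wild-type GFP-positive stem cells, and wild-type GFP-negative non-stem cells. The labels name no agent or treatment, and they do not say how many animals gave each sample. The collection protocol of every sample speaks of ILCreg, an innate lymphoid population, so which gate was used is uncertain.

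Fibrillar collagens form the tensile fibres of connective tissue and are secreted mainly by fibroblasts and smooth muscle. Basement membranes are thin sheets of collagen IV, laminin, nidogen and perlecan under epithelia and around vessels. In the gut, the mesenchyme beneath the crypt supplies much of this matrix together with signals for stem cells. Matrix RNA in an epithelial sort may therefore come from other cells as well as from the sorted ones.

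All levels are the authors' log2 values, and comparisons subtract the log2 value on 1 array from that on another. With 1 array a group there is no replicate check, no error and no p-value. A level counts as above background where it reaches the 95th percentile of the 5222 negative control features of its array, here called the control limit. That limit was 5.31 for LncGata6 mutant, 5.19 for Ehf knockout, 5.62 for wild-type stem and 5.16 for non-stem cells. A gene is called higher or lower where its 2 values lie 1 or more apart (2-fold) and the larger reaches the control limit of its array. Folds are brighter over dimmer, and where the dimmer value lies under its control limit that limit replaces it and the fold is "at least".

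Several arrays carried RNA that their labels do not name. Lgr5 was above the control limit on the wild-type stem array only, at 3.03 on the LncGata6 mutant, 2.79 on the Ehf knockout, 9.41 on the wild-type stem and 3.03 on the non-stem array. Ehf read 5.09, 3.03, 6.99 and 3.75 in that order of arrays, and Gata6os, the listed name of LncGata6, lay under the limit on all 4. All 7 T cell markers were above the limit on the LncGata6 mutant array, and all 7 neutrophil and 0 of 8 general epithelial markers on the Ehf knockout array. All 9 hepatocyte and all 7 kidney tubule markers were above it on the non-stem array. Arrays are named by their labels throughout.

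Matrix transcripts were most abundant on the non-stem array. There, 25 of the 43 genes reached the control limit, against 2 on the LncGata6 mutant, 3 on the Ehf knockout and 4 on the wild-type stem array. Of all genes 26.5% reached it on the non-stem array, and 20.1%, 17.5% and 16.5% on those stem arrays in that order. The median level was 3.69 on the LncGata6 mutant, 3.78 on the Ehf knockout, 4.22 on the wild-type stem and 5.47 on the non-stem array. The medians of all genes were 3.42, 3.24, 3.43 and 3.55 in the same order. The non-stem array was the brightest of the 4 for 34 of the 43 genes (79.1%), while it was the brightest for 45.3% of all genes. Vim reached the limit on all 4 arrays, Fn1, Bgn, Sparc, Timp2 and Acta2 on 2, 20 genes on 1, and 17 genes on none.

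**Figure D1:**
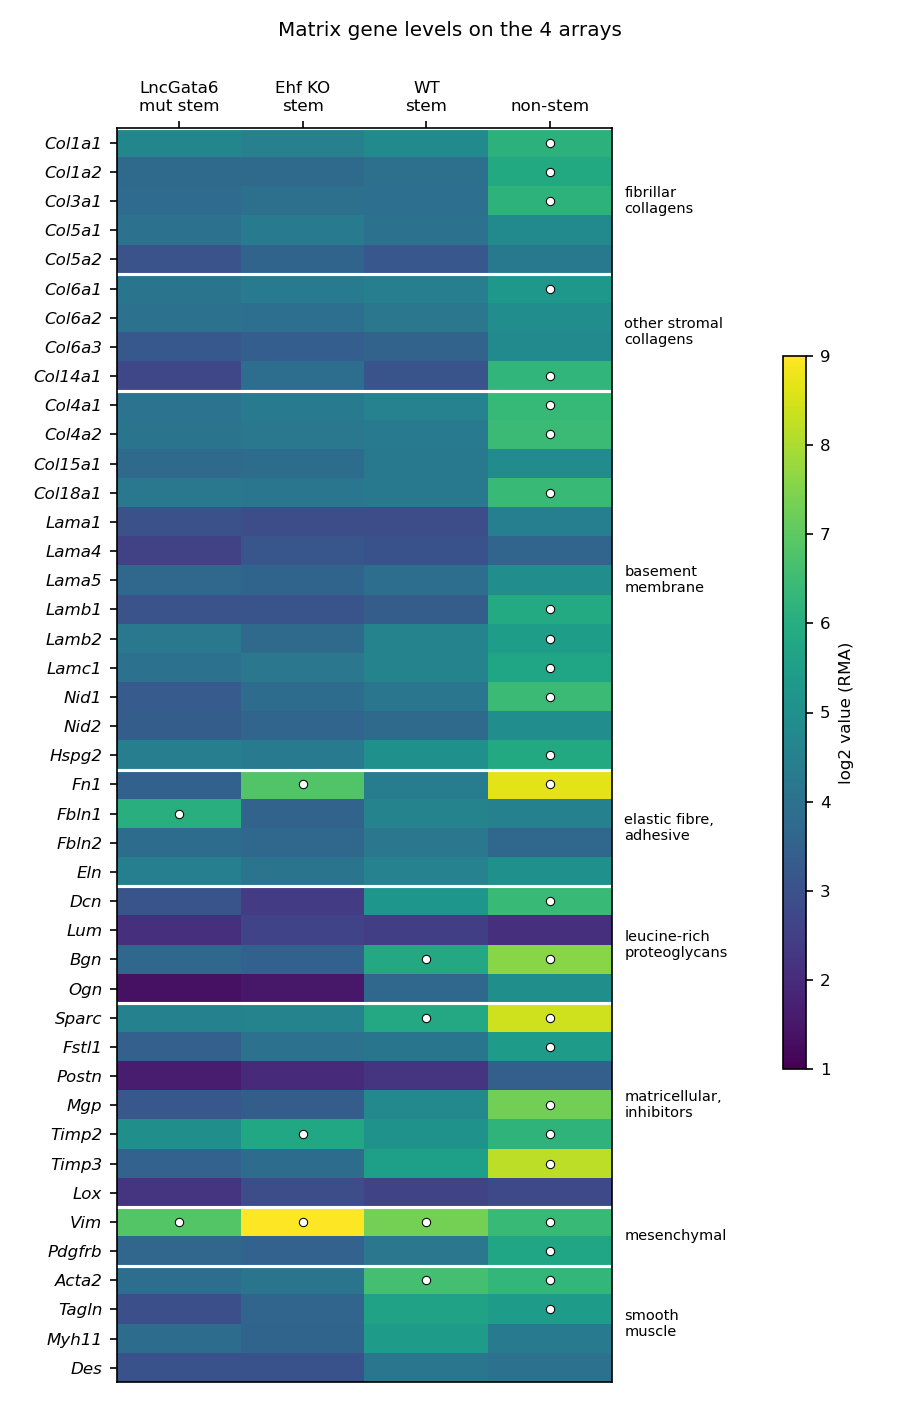
Log2 level of the 43 measured matrix genes (rows, grouped by role) on the 4 arrays (columns). Colour gives the log2 value and a white dot marks a value at or above the control limit of its array. The non-stem column holds 25 dots, against 2, 3 and 4 in the LncGata6 mutant, Ehf knockout and wild-type stem columns.

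The wild-type stem array was first set against the non-stem array. The differences are those between these 2 arrays, and all 9 hepatocyte and all 7 kidney tubule markers were above the limit on the non-stem array. Of the 43 matrix genes, 0 passed as higher on the wild-type stem array and 19 (44.2%) as lower. Of all genes 3.0% were higher, 7.29% lower and 10.3% called either way. The members' median difference was -1.15, and that of all genes -0.11. Of the 43 genes, 25 reached the limit on either array, so the other 18 could not be called. Of all 30701 genes, 8635 reached it on either array. With the limit at the 99th percentile of the controls, 3 of the 19 calls were kept (Fn1, Sparc and Timp3).

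Fibrillar collagens were at background on the wild-type stem array and above it on the non-stem array for the 3 abundant chains. Col3a1, the type III chain of pliable tissues, read 3.80 on the LncGata6 mutant, 3.96 on the Ehf knockout, 3.93 on the wild-type stem and 6.16 on the non-stem array. The type I chains behaved alike, with Col1a1 at 4.69, 4.47, 4.79 and 6.14 and Col1a2 at 3.76, 3.78, 3.95 and 5.87 in the same order. Wild-type stem values were lower than non-stem values by at least 1.45-fold for Col3a1, 1.43-fold for Col1a1 and 1.18-fold for Col1a2. Col5a1 and Col5a2, type V chains that set fibril diameter, were under the limits on all arrays, with non-stem values of 4.81 and 4.23. Of the stromal collagens outside the fibrillar class, Col14a1, which coats fibril surfaces, had 3.07 on the wild-type stem and 6.26 on the non-stem array, a difference of -3.19 (at least 1.56-fold lower). The type VI chains, which form beaded microfilaments around cells, were not called. Their differences were -0.85 for Col6a1, -0.76 for Col6a2 and -1.30 for Col6a3, and only Col6a1 (5.28 on the non-stem array) reached a limit.

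Across the 13 collagen genes on the list, none reached the control limit on any of the 3 stem arrays, where values ran between 2.71 and 4.79. On the non-stem array 8 of the 13 reached it, and all 13 were brightest there. The 3 stem arrays lay close together, with a median spread of 0.31 between the highest and lowest of them. Col14a1 had the widest spread, 1.18, with its highest stem value (3.89) on the Ehf knockout array, and the next gene had 0.53. No collagen was therefore called between any 2 stem arrays, and at these signal levels a difference among them was not detectable.

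Basement membrane genes were all below their non-stem values on the wild-type stem array. Of 13 genes, 6 were called lower, 0 higher, and the median difference was -1.15. The collagen IV chains, the network formers of basement membranes, stood at 4.05 (Col4a1) and 4.07 (Col4a2) on the LncGata6 mutant, 4.30 and 4.20 on the Ehf knockout, 4.54 and 4.29 on the wild-type stem, and 6.37 and 6.46 on the non-stem array. They differed by -1.83 (at least 1.68-fold lower) and -2.16 (at least 1.78-fold lower) between the wild-type stem and non-stem arrays. These genes lie head to head, and the RefSeq start sites in the GRCm38.p6 assembly are 21 bases apart on opposite strands, so their 300-base promoter windows overlap by 78 bases. Both windows are shown because they share bases and their chains had like values. Capitals mark, on either strand, the CCAAT box, the GC box GGGCGG and the TATA box TATAAA, none of which overlap here. The Col4a1 window is chr8:11312777-11313076 on the minus strand and the Col4a2 window chr8:11312555-11312854 on the plus strand, each running from 250 bases before the start to 50 after it.
Col4a1: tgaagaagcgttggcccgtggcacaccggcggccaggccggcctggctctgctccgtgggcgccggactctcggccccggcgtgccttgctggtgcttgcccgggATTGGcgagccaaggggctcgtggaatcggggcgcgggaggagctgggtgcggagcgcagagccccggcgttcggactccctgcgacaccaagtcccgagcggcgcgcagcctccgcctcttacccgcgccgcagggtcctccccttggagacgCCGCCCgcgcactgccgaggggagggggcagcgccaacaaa
Col4a2: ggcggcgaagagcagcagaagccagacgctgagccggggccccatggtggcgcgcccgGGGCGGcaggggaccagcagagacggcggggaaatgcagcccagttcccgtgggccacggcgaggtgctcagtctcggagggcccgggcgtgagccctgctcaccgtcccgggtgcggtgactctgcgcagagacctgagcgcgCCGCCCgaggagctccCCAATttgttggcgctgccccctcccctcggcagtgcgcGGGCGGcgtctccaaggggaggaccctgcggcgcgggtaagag

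Each window holds 1 CCAAT box, forward for Col4a2 and in reverse for Col4a1. The GC box, the core of the site that Sp1 family factors recognise, occurs 1 time in the Col4a1 window and 3 times in the Col4a2 window, counting both strands. The Col4a1 GC box and the last one in the Col4a2 window are the same bases. They lie in the overlap, after the start site of each gene. Neither holds a TATA box. The CCAAT box was present in 37.4% of all 32851 promoters of this length and in 9 of 33 promoters of the 29 members that matched a RefSeq window, the GC box in 35.7% and 19 of 33, and the TATA box in 13.6% and 4 of 33. A match describes letters and is not a binding site.

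For comparison with a fibrillar chain, the window of Col1a2 is chr6:4505368-4505667 on the plus strand, with the same capitals.
Col1a2: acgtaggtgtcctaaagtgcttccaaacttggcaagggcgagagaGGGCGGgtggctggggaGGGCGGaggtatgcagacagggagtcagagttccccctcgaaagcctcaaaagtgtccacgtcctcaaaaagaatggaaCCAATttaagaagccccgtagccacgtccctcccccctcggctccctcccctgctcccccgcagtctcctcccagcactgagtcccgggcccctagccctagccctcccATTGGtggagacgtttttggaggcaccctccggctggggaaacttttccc
It holds the CCAAT box in both orientations and the GC box at 2 places, and no TATA box.

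Among the other basement membrane genes, Nid1, which links laminin to collagen IV, read 3.30 on the LncGata6 mutant, 3.82 on the Ehf knockout, 4.14 on the wild-type stem and 6.46 on the non-stem array. Lamb1, the beta chain of most laminins of vessels and kidney tubules, read 3.04, 3.09, 3.36 and 5.88 in the same order. Its partner Lamc1, the gamma chain common to many laminins, read 4.0, 4.16, 4.58 and 5.71. Col18a1, whose released end is endostatin and which hepatocytes also make, read 4.19, 4.15, 4.25 and 6.40. On the wild-type stem array these were lower by at least 1.78-fold, 1.19-fold, 1.06-fold and 1.72-fold. Lamb2 (5.47) and perlecan, Hspg2 (5.87), reached the limit on the non-stem array without a 2-fold difference. Lama1, Lama4, Lama5, Nid2 and Col15a1 were under the limits on every array, including Lama5, the alpha chain typical of intestinal epithelium, at 3.69, 3.59, 3.89 and 4.91.

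The list members with the widest ranges over the 4 arrays were secreted glycoproteins, proteoglycans and protease inhibitors. Fn1, fibronectin, an adhesive protein made by fibroblasts, hepatocytes and macrophages, ranged over 5.17. It had 3.49 on the LncGata6 mutant, 6.84 on the Ehf knockout, 4.35 on the wild-type stem and 8.67 on the non-stem array. Fn1 was thus at least 8.24-fold lower in wild-type stem than in non-stem cells. Timp3, an inhibitor of matrix metalloproteinases that binds to matrix, read 3.51, 3.83, 5.53 and 8.21 in the same order and was at least 6.01-fold lower on the wild-type stem array. Sparc, a collagen-binding matricellular protein, read 4.50, 4.57, 5.82 and 8.41 and was 6.05-fold lower. Mgp, which inhibits calcification, read 3.17, 3.37, 4.77 and 7.29 (at least 3.18-fold lower).

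The small leucine-rich proteoglycans bind collagen fibrils and regulate their assembly. Bgn, biglycan, had 3.68 on the LncGata6 mutant, 3.47 on the Ehf knockout, 5.83 on the wild-type stem and 7.59 on the non-stem array. Dcn, decorin, a marker of fibroblasts, read 3.07, 2.38, 5.20 and 6.41 in the same order. Between the wild-type stem and non-stem arrays Bgn was 3.38-fold lower and Dcn at least 1.73-fold lower. Ogn read 1.37, 1.52, 3.67 and 5.0 and Lum 2.06, 2.60, 2.49 and 2.06, all under the limits. The wild-type stem values of Bgn and Dcn lay between those of the mutant arrays and that of the non-stem array.

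Of the remaining secreted genes, Timp2, which inhibits and also helps activate matrix metalloproteinase 2, read 4.98 on the LncGata6 mutant, 5.79 on the Ehf knockout, 5.12 on the wild-type stem and 6.20 on the non-stem array. Fstl1, a follistatin-like glycoprotein of mesenchyme, read 3.47, 4.03, 4.12 and 5.43. Both were called lower on the wild-type stem array, Timp2 by at least 1.49-fold. For Fstl1 no fold is given, since the non-stem value lay under the control limit of the wild-type stem array. The Timp2 call was lost under median centring (-0.96), quantile normalization (-0.81) and cyclic loess (-0.97), and those of Dcn (-0.95) and Lamc1 (-0.85) under quantile normalization. Postn, periostin, the crosslinking enzyme gene Lox, the elastin gene Eln and Fbln2 were under the limits on all arrays, with highest values of 3.42, 2.89, 5.01 and 4.17. Pdgfrb, the PDGF receptor of pericytes and other mesenchymal cells, had 3.64, 3.51, 4.16 and 5.69 and was at least 1.05-fold lower on the wild-type stem array.

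Between the wild-type stem and non-stem arrays, 0 of the 4 smooth muscle genes were called. Acta2, smooth muscle actin, also made by myofibroblasts and pericytes, read 3.88 on the LncGata6 mutant, 4.09 on the Ehf knockout, 6.61 on the wild-type stem and 6.28 on the non-stem array. Tagln, an actin-binding protein of smooth muscle, read 2.95, 3.6, 5.62 and 5.41. Myh11, the smooth muscle myosin heavy chain, read 3.82, 3.57, 5.41 and 4.27, and the muscle intermediate filament gene Des 3.02, 3.01, 4.13 and 4.0. All 4 were brightest on the wild-type stem array, where only Acta2 reached the limit. Their differences from the non-stem array were between 0.12 and 1.15. Of 8 further smooth muscle markers, among them the light chain kinase Mylk, 0 were above the limit on the wild-type stem and 2 on the non-stem array.

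Liver, kidney, endothelial, macrophage and neutrophil markers moved with the matrix genes in this comparison. Their counts above the limit were 1, 0, 2 and 1 on the wild-type stem array and 9, 7, 8 and 6 on the non-stem array, of 9 hepatocyte, 7 kidney tubule, 11 endothelial and 8 macrophage markers. The log2 of their summed levels was 7.91, 5.53, 8.64 and 7.46 on the wild-type stem array, against 14.64, 13.25, 9.49 and 9.07 on the non-stem array. The 1 hepatocyte marker above the limit on the wild-type stem array was Apoa1 (7.54), and the others read 3.80 or less there. Of 7 neutrophil markers 0 reached the limit on the wild-type stem and 5 on the non-stem array, with log2 summed levels of 5.54 and 9.5. For 7 pericyte markers these counts were 1 and 2, and for 3 kidney podocyte and mesangial markers 0 and 1. Median differences of these 2 lists were -0.11 and -0.70. In each, 1 marker was called lower in wild-type stem cells (14.3% and 33.3%, beside 7.29% of all genes). All 7 T cell markers were lower there, with a median of -0.62, but 0 were called. General epithelial markers moved the other way, with 7 of 8 higher in wild-type stem cells and log2 summed levels of 12.10 and 10.05. Only 1 of 15 fibroblast and telocyte markers reached the limit on each of these arrays, the widely expressed Cd81, while Foxl1, Twist1 and Grem1 were under it on all 4 arrays. None of 5 hepatic stellate, 3 enteric glia and nerve or 4 mesothelial markers reached it on any array. The part of these cells in the matrix differences was not tested, and fewer cells of a type cannot be told apart from less RNA per cell.

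**Figure D2:**
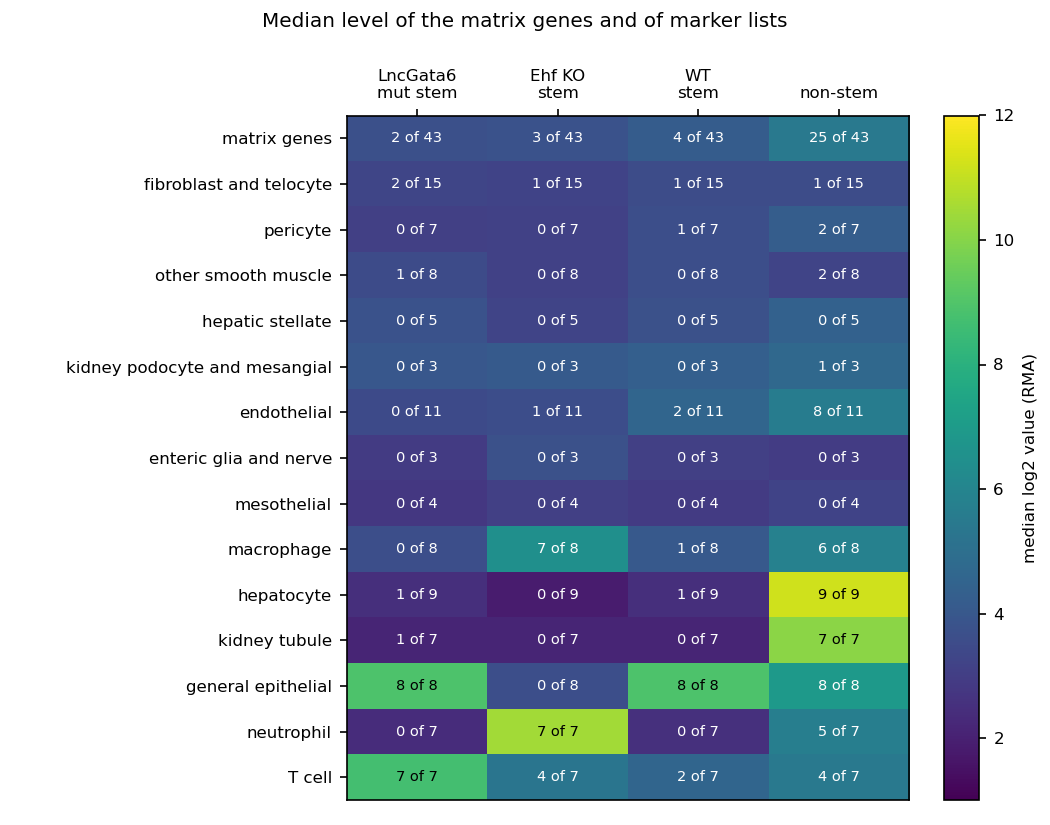
Median log2 level (colour) of the matrix genes and of marker lists for other cell types (rows) on the 4 arrays (columns). Each cell gives how many measured genes reached the control limit, for example 9 of 9 hepatocyte markers on the non-stem array and 7 of 7 neutrophil markers on the Ehf knockout array.

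The mutant stem arrays were then each set against the wild-type stem array. Both comparisons use that same array, so their differences are not independent and are given side by side. Of 43 matrix genes, 1 was higher in LncGata6 mutant cells (beside 2.57% of all genes) and 3 were lower (beside 2.53%), so that 9.30% were called, against 5.1% of all genes. The members' median difference was -0.43 and that of all genes -0.06. In Ehf knockout cells 2 were higher (beside 2.16% of all genes) and 3 lower (beside 3.74%), so that 11.6% were called, against 5.91% of all genes, with medians of -0.27 for the members and -0.20 for all genes. Few members could be called at all, since 5 and 6 of the 43 reached the limit on either array of the 2 comparisons. Of all 30701 genes, 6664 and 6378 did.

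The genes lower on the LncGata6 mutant array were Acta2 (-2.73, at least 2.46-fold), Bgn (-2.15, at least 1.44-fold) and Sparc (-1.31, at least 1.42-fold). On the Ehf knockout array, Acta2, Bgn and Sparc differed by -2.52 (at least 2.68-fold lower), -2.36 (at least 1.56-fold) and -1.24 (at least 1.54-fold). The Sparc call on the Ehf knockout array was lost under quantile normalization (-0.90) and cyclic loess (-0.88). With the limit at the 99th percentile of the controls, all 4 calls on the LncGata6 mutant array ended, and 1 of 5 (Vim) was kept on the Ehf knockout array. Other secreted and muscle genes had values well below those of the wild-type stem array but lay under the limits on both arrays. Dcn differed by -2.12 on the LncGata6 mutant and -2.81 on the Ehf knockout array, Timp3 by -2.02 and -1.69, Mgp by -1.60 and -1.40, Ogn by -2.29 and -2.15, and Tagln by -2.68 and -2.03. All 4 smooth muscle genes were lower by at least 1 in each comparison, with medians of -2.13 and -1.93, although only Acta2 could be called. The wild-type stem value of Tagln lay just under its limit, and under quantile normalization and cyclic loess Tagln was called lower on both mutant arrays. Under each of 3 other scalings of the arrays, 3 of the 4 smooth muscle members were lower by at least 1 on the Ehf knockout array. Of the 8 further smooth muscle markers, 0 were called in either comparison, beside 5.1% and 5.91% of all genes. Their median differences were -0.27 on the LncGata6 mutant and -0.52 on the Ehf knockout array. On the LncGata6 mutant array 5 were lower and 3 higher, none by 1 or more. On the Ehf knockout array all 8 were lower, 1 of them by at least 1. The 13 collagen genes differed by between -0.49 and 0.03 on the LncGata6 mutant array and by between -0.38 and 0.81 on the Ehf knockout array.

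**Figure D3:**
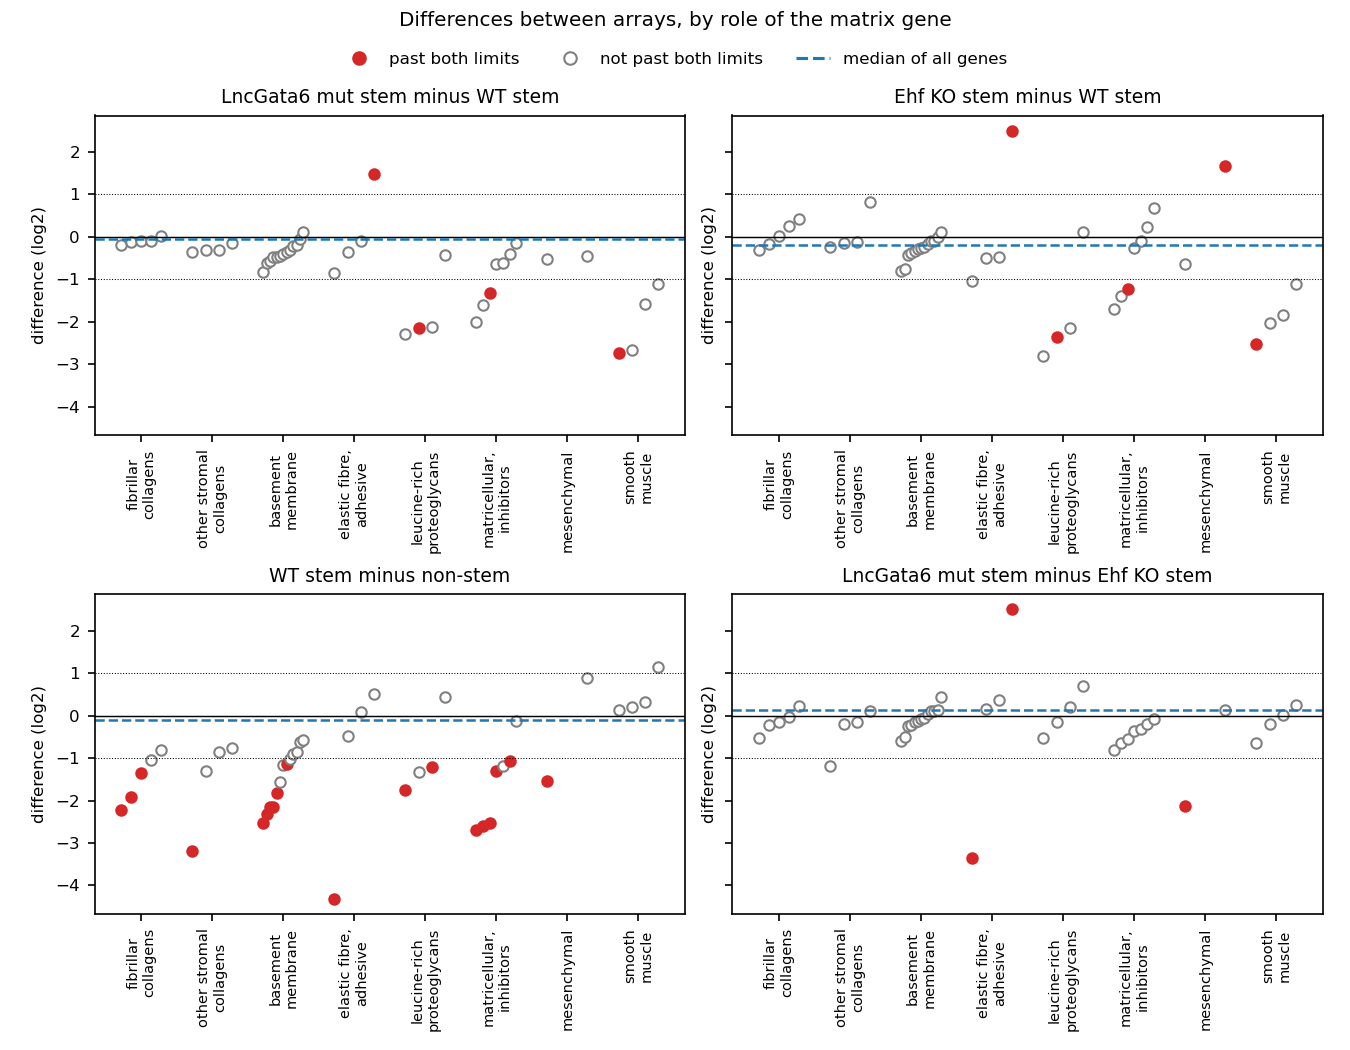
Difference in log2 value between 2 arrays (vertical axis) for each matrix gene, grouped by role (horizontal axis), in the 4 comparisons. Filled red points are called, dotted lines mark a difference of 1 either way and the dashed line is the median of all genes. In the panels of each mutant minus wild-type stem all 4 smooth muscle points lie below -1, and 19 genes are called lower in the panel of wild-type stem minus non-stem.

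Some vascular markers were also higher on the wild-type stem array than on either mutant array. The pericyte marker Rgs5 read 3.01 on the LncGata6 mutant, 3.13 on the Ehf knockout, 6.44 on the wild-type stem and 5.99 on the non-stem array. The endothelial cadherin Cdh5 read 3.47, 2.70, 6.92 and 6.41. Of 11 endothelial markers, 0 were above the limit on the LncGata6 mutant, 1 on the Ehf knockout and 2 on the wild-type stem array. The log2 of their summed level was 6.94, 7.36 and 8.64, and that of 7 pericyte markers 6.41, 6.24 and 7.41. Of the pericyte markers 0, 0 and 1 reached the limit, the 1 being Rgs5, and the list's median difference from wild-type stem was -0.13 on the LncGata6 mutant and -0.27 on the Ehf knockout array. Their part in the lower Acta2, Bgn and Sparc was not tested.

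Vim, Fn1 and Fbln1 were the members higher on a mutant array. Vim encodes vimentin, the intermediate filament protein of mesenchymal cells, endothelium and leukocytes, and had 6.85 on the LncGata6 mutant, 8.99 on the Ehf knockout, 7.31 on the wild-type stem and 6.44 on the non-stem array. It was 3.19-fold higher on the Ehf knockout array than on the wild-type stem array, and differed by -0.46 on the LncGata6 mutant array. Fn1 was at least 2.32-fold higher on the Ehf knockout array (2.49) and lay at background on the LncGata6 mutant array (-0.86). Fbln1, fibulin 1, a glycoprotein of elastic fibres and basement membranes, had 6.05 on the LncGata6 mutant, 3.53 on the Ehf knockout, 4.58 on the wild-type stem and 4.50 on the non-stem array. It was at least 1.34-fold higher on the LncGata6 mutant array, the only array on which it reached the limit. The promoter window of Vim, chr2:13574061-13574360 on the plus strand, is shown because Vim alone among the members reached the limit on all 4 arrays; the same motifs are in capitals.
Vim: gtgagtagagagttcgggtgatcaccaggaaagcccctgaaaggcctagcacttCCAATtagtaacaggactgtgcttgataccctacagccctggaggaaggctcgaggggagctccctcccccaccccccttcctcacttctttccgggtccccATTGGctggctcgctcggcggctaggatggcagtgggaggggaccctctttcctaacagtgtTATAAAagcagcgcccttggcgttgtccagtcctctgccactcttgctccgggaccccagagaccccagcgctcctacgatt
It holds the CCAAT box in both orientations and 1 TATA box, and no GC box.

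Macrophage and neutrophil markers were higher on the Ehf knockout array, beside Vim and Fn1. On the Ehf knockout array 7 of 8 macrophage and 7 of 7 neutrophil markers were above the limit, against 1 and 0 on the wild-type stem array. The log2 of the summed macrophage markers was 9.68 against 7.46, and that of the neutrophil markers 13.41 against 5.54. T cell markers were mixed there, with 3 of 7 higher and 2 lower. On the non-stem array 6 of 8 macrophage and 5 of 7 neutrophil markers reached the limit, with log2 summed levels of 9.07 and 9.5. Vim read 6.44 there, its lowest value, and Fn1 8.67, its highest. The macrophage receptor gene Csf1r read 7.07 on the Ehf knockout and 4.46 on the wild-type stem array. With Fbln1, all 7 T cell markers were higher on the LncGata6 mutant array, with a log2 summed level of 12.43 against 8.22, and of 8 epithelial markers 1 was higher and 2 were lower. The part of these cells in the 3 differences was not tested.

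**Figure D4:**
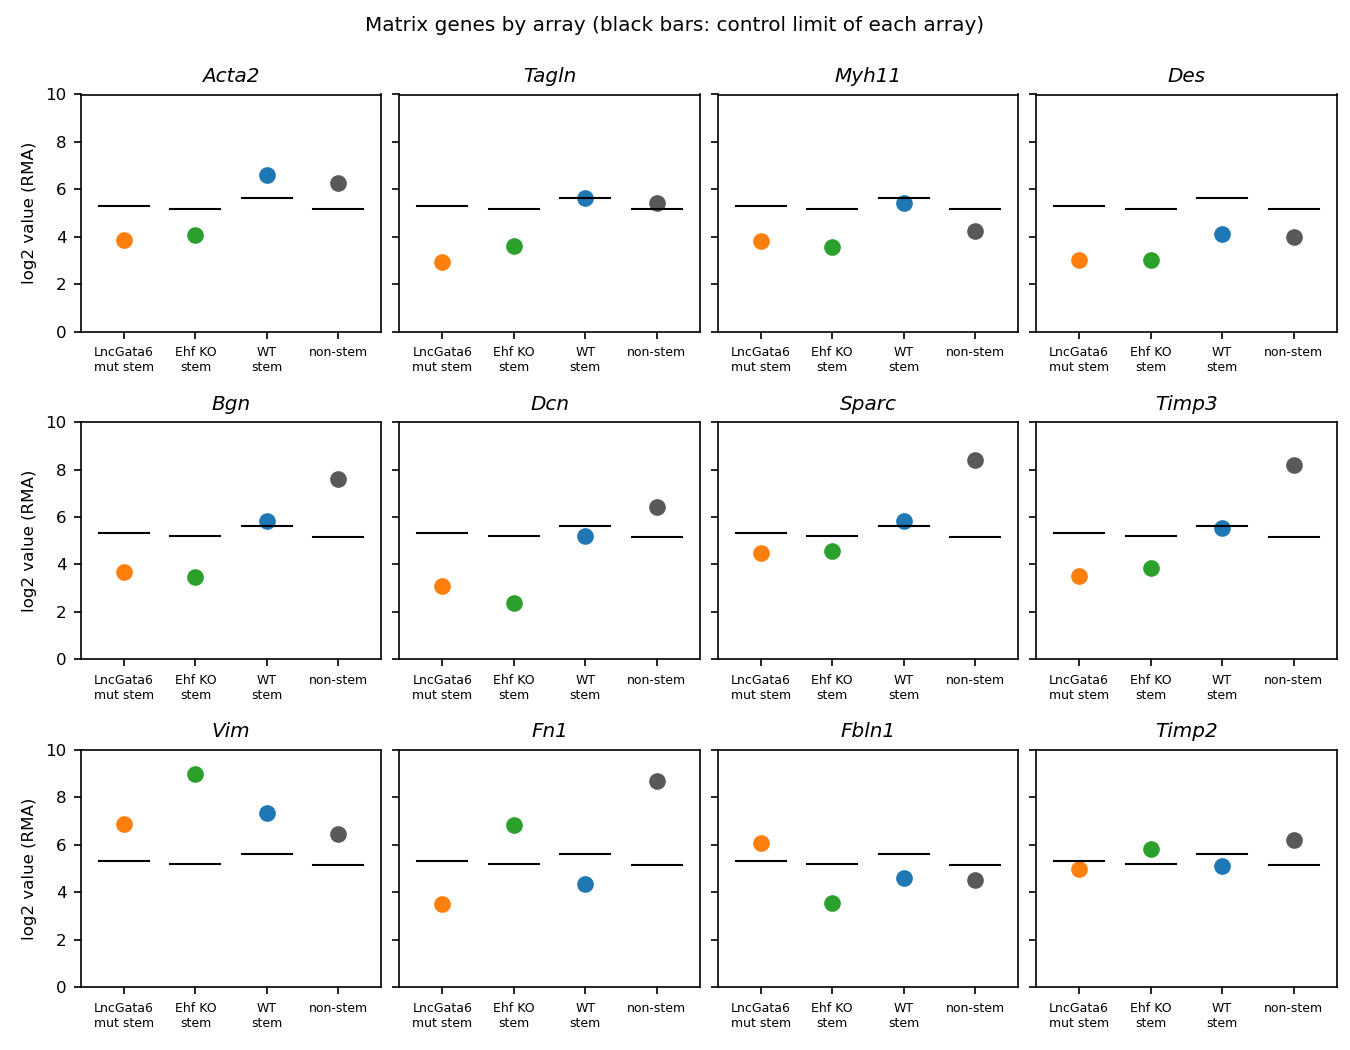
Log2 level of 12 matrix genes (panels) on the 4 arrays (horizontal axis), with a black bar at each array's control limit. The smooth muscle genes in the top row are highest on the wild-type stem array, Vim is highest on the Ehf knockout array (8.99), and Fbln1 exceeds its limit on the LncGata6 mutant array alone (6.05).

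The mutants were also compared with each other. Between LncGata6 mutant and Ehf knockout cells 1 of 43 matrix genes was higher (beside 5.47% of all genes) and 2 were lower (beside 3.03%), so that 6.98% were called, against 8.5% of all genes. Fn1 was at least 2.88-fold lower and Vim 4.39-fold lower on the LncGata6 mutant array, and Fbln1 was at least 1.81-fold higher. The members' median difference was -0.15 and that of all genes 0.13. Acta2 (-0.21), Bgn (0.21) and Sparc (-0.07) were not called, all under the limits on both arrays.

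Genes that process, receive or remodel matrix were read alongside. Their counts stand beside 5.1% of all genes called for LncGata6 mutant against wild-type stem, 5.91% for Ehf knockout against wild-type stem, and 10.3% for wild-type stem against non-stem. Of 26 genes for collagen processing enzymes 23 were measured, and 5 were lower and 0 higher in wild-type stem than in non-stem cells. They included the prolyl hydroxylase P3h2 (at least 5.03-fold), Crtap, a cofactor of collagen prolyl 3-hydroxylation (at least 1.98-fold), the lysyl hydroxylase Plod1 (at least 1.08-fold) and P4ha1 (at least 1.12-fold), the catalytic chain of prolyl 4-hydroxylase. In the mutants 1 of 23 (4.35%) was higher on the LncGata6 mutant array and 1 of 23 lower on the Ehf knockout array, in each case P4hb, a subunit of prolyl 4-hydroxylase that is also a general disulphide isomerase. P4hb read 10.13 on the LncGata6 mutant, 8.01 on the Ehf knockout, 9.11 on the wild-type stem and 9.56 on the non-stem array.

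Of 30 further collagen genes measured, 28 were under the limits on all 4 arrays. The exceptions were Col4a3 (6.33) and Col4a4 (5.88) on the non-stem array, chains of the collagen IV network of kidney glomeruli. They were at least 1.63-fold and 1.2-fold lower in wild-type stem cells. Of 8 other laminin and basement membrane genes, 3 were lower there, led by Npnt, nephronectin (3.63 against 6.78). Lama3, an alpha chain of epithelial laminin, was at least 1.90-fold higher on the LncGata6 mutant array than on the wild-type stem array (6.55 against 3.85).

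Of 22 matrix receptor genes, 3 were higher and 6 lower in wild-type stem than in non-stem cells. Among the called genes the largest differences were those of Itgb8 (2.04 against 6.74), Itga2, a collagen-binding integrin chain (6.30 against 2.86), Itgb6 (4.19 against 6.61) and the hyaluronan receptor Cd44 (6.60 against 4.37). On the LncGata6 mutant array 2 were higher (Itgb5 and Itgb6) and 2 lower (Itga2 and Cd44) than on the wild-type stem array. In Ehf knockout cells 0 were higher and 6 lower, led by Itga2 (at least 2.15-fold) and Itga6, a laminin-binding integrin chain of epithelia (at least 3.75-fold). General epithelial markers moved with the receptors there, with 0 of 8 above the limit on the Ehf knockout array and 8 of 8 on the wild-type stem array.

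Matrix proteases were mostly at background. Of 13 measured, 1 was lower on the LncGata6 mutant array, while in Ehf knockout cells 1 was higher and 1 lower. Adamts1, a protease that cleaves proteoglycans and was called lower, stood at 2.91 on the LncGata6 mutant, 2.97 on the Ehf knockout and 5.66 on the wild-type stem array. Mmp9, a gelatinase stored in neutrophil granules, was at least 5.59-fold higher on the Ehf knockout array. In wild-type stem against non-stem cells 1 of 13 proteases was lower (7.69%, beside 10.3% of all genes), Adamts5 (2.18 against 5.27). Of 13 TGF-beta pathway genes, 0 were called in LncGata6 mutant and 1 in Ehf knockout cells, where Tgfb1, the cytokine that induces collagen genes, was at least 2.41-fold higher (6.89 against 5.21). That is 7.69% of the list, near the 5.91% of all genes. On the wild-type stem array 2 were lower than on the non-stem array, Ccn2 (at least 1.22-fold) and Tgfbr3.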

How the data were processed

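Total RNA of 4 sorted cell samples was hybridised to Affymetrix Clariom D mouse arrays, 1 per group. The authors deposited log2 values per array feature, and the submitters' processing notes name Affymetrix Power Tools and RMA without a version. This method corrects background, scales arrays and combines probes, which compresses differences of dim features. The log2 scale was taken from the values, -0.18 to 13.13. Symbols came from the platform annotation, updated through RefSeq (GRCm38.p6): of 72688 features, 31258 had 1 symbol, 1492 had several and 39938 none. The brightest feature stood for a gene with several. No genome build was given for the features.

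A call needed a difference of at least 1 and a brighter value at or above the 95th percentile of negative controls. Values of different features were not ranked against each other. Members, lists and limits were chosen with earlier results of these data known. Named genes are all members, and at most 4 called genes of each other list in each comparison, by size of difference. Marker genes given as checks, and Apoa1, Cd81, Foxl1, Twist1, Grem1, Mylk, Rgs5, Cdh5 and Csf1r, were chosen after their values were seen. Alternatives were 3 scalings (median, quantile, cyclic loess with limma 3.58.1 in R 4.3.3), 3 other limits on the brighter value, a 1.5-fold difference and the median of features. Python 3.11.15 with pandas 2.3.3 was used.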

Additional observations from a re-analysis of the deposited data

How the results depend on the processing

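No called member changed direction under the 3 scalings, and the other 5 alternatives cannot change a direction. Single genes lost a call 33 times and kept it 215 times. With no limit, at a 1.5-fold difference or under the median of features no call could be lost. Calls kept under those settings therefore test nothing. The count called stayed within 1.5 times for 24 of 32 values. The count could not change under the median of features, since each member has 1 feature. It moved with the limit on dim values. Under the 75th percentile of each array it was 8 on the LncGata6 mutant and 9 on the Ehf knockout array against wild-type stem, and with no limit 11 and 13. Under the 99th percentile of the controls it was 0 and 1 in these comparisons, 3 for wild-type stem against non-stem, and 1 for LncGata6 mutant against Ehf knockout, because few values reach that limit. Scaling shifted the median of all genes by up to 0.21 for Ehf knockout against wild-type stem. The members' median there was -0.27 as deposited and -0.03 under cyclic loess, and Sparc was no longer called (-0.88; -0.90 under quantile normalization). Timp2 was then called higher on the Ehf knockout array, under both. Timp2 was no longer called lower on the wild-type stem array under any of the 3 scalings (-0.96, -0.81 and -0.97), nor were Lamc1 (-0.85) and Dcn (-0.95) under quantile normalization, where Vim was called higher. No paired analysis was possible because each group has 1 array. Signal over background limits the comparison of the stem arrays, where 2 to 4 of 43 members reached the control limit.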
